A study of Mus musculus with 12 samples.

Results

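Genes of the mTOR complexes and of their control by the TSC proteins were followed in ribosome-bound RNA from mouse retina at postnatal day 9 (P9) and postnatal day 3 (P3). The members are 10 genes, listed by symbol: Mtor, Rptor, Rictor and Mlst8 for the complexes, Tsc1, Tsc2, Rheb and Ddit4 for their control, and Rps6kb1 and Eif4ebp1 as targets. Each matched a gene row, 10 of 53090 in the deposited tables, and all 10 passed the filter on low counts, 10 of 18638 genes tested. The P9 group and the P3 group held 6 libraries each, all from C57BL/6 mice given tamoxifen by injection on days 1 and 2. RNA was purified after immunoprecipitation of ribosomes through an HA tag, and the cell type is labelled as pericytes of the retina, mural cells of the smallest vessels. No source used here gives the promoter that drives the tag, the animals per library or their sex. Nothing states that libraries came from separate animals, so the p-values cover library-to-library spread, part of which may be technical. More days passed between tamoxifen and harvest in the P9 group, and that interval and age cannot be told apart.

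mTOR is a protein kinase that couples growth factors, amino acids and energy to protein synthesis and cell growth. It works in a pair of complexes that share mTOR and the small scaffold mLST8. Raptor defines mTORC1, which promotes translation by phosphorylating S6 kinase and the 4E-BP repressors of cap binding, and rictor defines mTORC2, which phosphorylates AKT. The GTPase Rheb switches mTORC1 on, and the TSC1-TSC2 complex switches Rheb off. PI3-kinase signalling, which the series title places in pericyte maturation, acts on this step because AKT inhibits TSC2. Loss of Tsc1 or Tsc2 is known to raise mTORC1 activity. The files hold transcript levels only, and activity or phosphorylation of these proteins was not measured.

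Levels are given in CPM, the count of a gene relative to the library total, scaled between libraries by the trimmed mean of M-values (TMM). Library totals ran from 32506999 to 37776172 expected counts at P9 and from 26839599 to 33514282 at P3, so that 1 CPM rests on 25.8 to 38.5 counts. All 10 pericyte markers examined were present, with a summed level of 2700 to 6080 CPM (median 4171) at P9 and 237 to 1204 CPM (median 528) at P3. Markers of other cells were present as well, and over all 12 libraries together no gene of the 16 marker lists averaged under 0.1 CPM. By age, Rpe65, a marker of pigment epithelium, averaged 5.07 CPM at P9 and 0.064 CPM at P3. Summed over 9 rod genes, the level was 6408 to 13839 CPM at P9 and 1124 to 2349 CPM at P3. The 9 retinal progenitor genes summed to 796 to 1011 CPM at P9 and 1361 to 1918 CPM at P3. The 6 proliferation genes gave 67.1 to 157 CPM at P9 and 1064 to 5344 CPM at P3, and the 6 lens genes 32.3 to 889 CPM at P9 and 2346 to 7055 CPM at P3. The part of these cells in the results below was not tested, and in bulk RNA fewer cells of a type and less RNA per cell cannot be told apart. Within P3, replicates 4 and 5 lay nearest to P9 on the first principal component, with the highest pericyte sums (1076 and 1204 CPM) and the lowest proliferation sums (1064 and 1069 CPM) of their age.

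The transcripts of Tsc1, Tsc2, the kinase and rictor fell at P9, that of raptor rose slightly, and the rest did not pass the test. Of the 10 genes, 1 rose and 4 fell at an adjusted p under 0.05 (edgeR quasi-likelihood test, Benjamini-Hochberg over all genes). Among all tested genes 51.8% passed that threshold, 26.1% upward and 25.6% downward, so the share of 5 in 10 is near the background. The 10 changes had a median log2 fold change (P9 over P3) of -0.07, against -0.0018 over all tested genes, and ran from -0.63 for Tsc1 to 0.22 for Rheb. For 2 genes, Tsc1 and Tsc2, the 6 values of P9 did not overlap the 6 values of P3, which held for 31.7% of all tested genes. The change of Tsc1 was larger in size than that of 63.5% of tested genes, and that of Mlst8 larger than that of 1.71%.

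**Figure D1:**
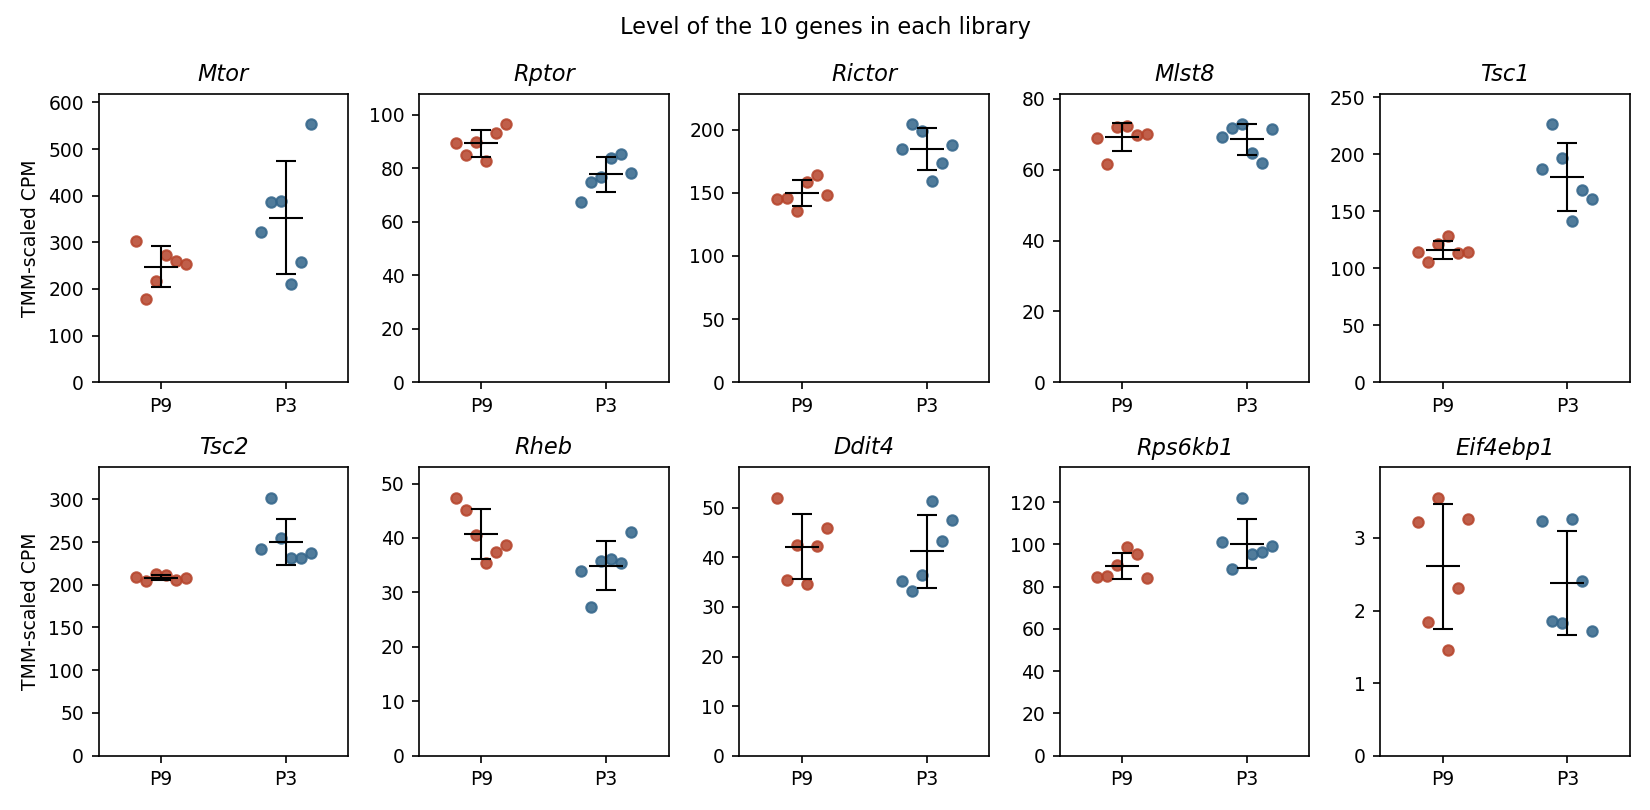
TMM-scaled CPM of each of the 10 genes (vertical axes, starting at 0) in the 6 P9 and the 6 P3 libraries; points are libraries in replicate order, and the bar shows the mean with 1 SD. All P9 values of Tsc1 and Tsc2 lie below all P3 values, while Mtor spreads most at P3, between 210 and 553 CPM.

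**Figure D2:**
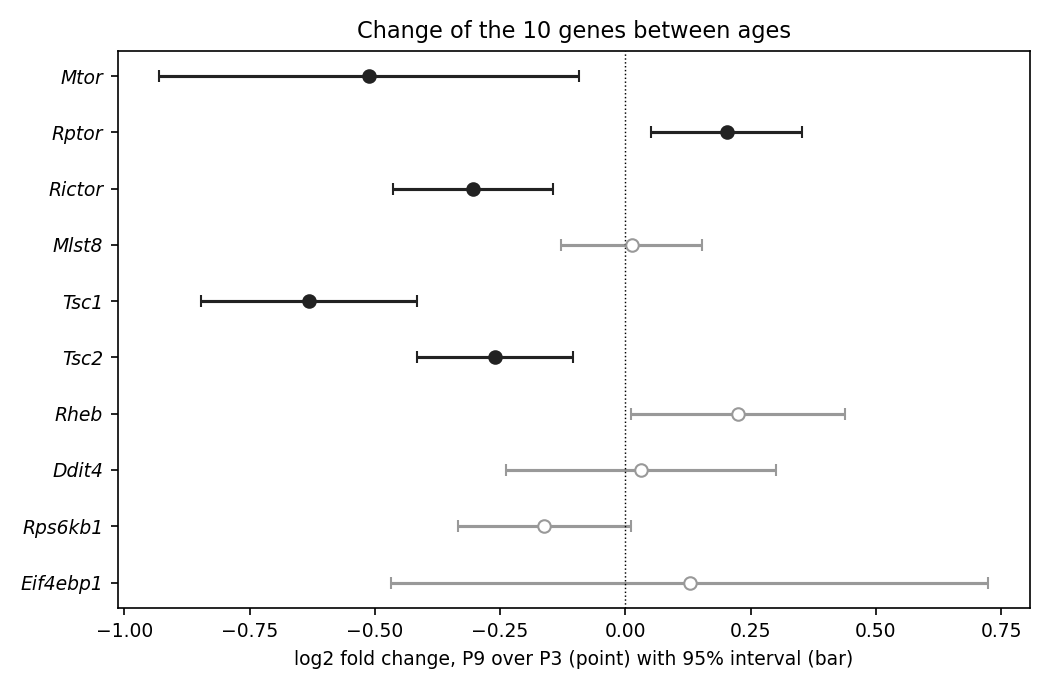
Log2 fold change of each gene, P9 over P3, with its 95% interval from the edgeR fit (horizontal axis); filled points passed an adjusted p under 0.05. Tsc1, Tsc2, Mtor and Rictor lie below 0, and Rptor is the gene above 0 that passed.

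The TSC complex is a brake on mTORC1: TSC2 carries the GTPase-activating domain that acts on Rheb, and TSC1 stabilises TSC2. Tsc1 (ENSMUSG00000026812.16, chromosome 2, 28640993 to 28691172 in GRCm38.p6) ranged over 106, 114 and 128 CPM (lowest, median and highest) at P9, against 141, 178 and 226 CPM at P3. Every P9 library was below every P3 library, and the P3 library nearest to P9 was replicate 4. Tsc1 averaged 116 ± 7.81 CPM at P9 and 180 ± 29.9 CPM at P3 (SD, n = 6 each), 1.55-fold lower at P9 (log2 fold change -0.63 ± 0.10, SE; edgeR adjusted p = 0.000105). Tsc2 (ENSMUSG00000002496.9, chromosome 17, 24595816 to 24632676) ranged over 204, 209 and 212 CPM at P9 and over 231, 240 and 302 CPM at P3. The P9 libraries were close together, and P3 replicate 2 stood above the rest of its age. Tsc2 averaged 208 ± 3.04 CPM at P9 and 250 ± 26.9 CPM at P3, 1.20-fold lower at P9 (log2 fold change -0.26 ± 0.07, SE; edgeR adjusted p = 0.00747). Without P3 replicate 2 the log2 fold change of Tsc2 was -0.20 (adjusted p = 0.0112). Tsc2 is the one member with non-whole expected counts in all 12 libraries, and its locus overlaps that of Pkd1, which encodes polycystin 1. Pkd1 stood at 238 ± 14.9 CPM at P9 and 252 ± 28.7 CPM at P3, with an adjusted p of 0.416 in the same edgeR fit. No source used here says whether counting used the strand, so reads of the overlap cannot be told apart.

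Tsc1 and Tsc2 changed unequally. The ratio of Tsc1 to Tsc2 within a library does not depend on how libraries are scaled. As log2 of the ratio of expected counts it was -0.85 ± 0.08 at P9 and -0.48 ± 0.13 at P3 (SD, n = 6 each). All 6 P9 ratios were below all 6 P3 ratios, although P3 replicate 4 (-0.71) lay next to P9 replicate 4 (-0.72). The difference was -0.36 (exact two-sided permutation test, p = 0.00216, the smallest that 6 against 6 libraries can give; adjusted over 6 ratios, 0.00649). Tbc1d7, which encodes a further subunit of the TSC complex, did not pass the test (log2 fold change 0.19, edgeR adjusted p = 0.118). It is not a member and was named after its value was seen.

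Rheb, the small GTPase that TSC2 inactivates, did not pass the test. Rheb (ENSMUSG00000028945.9, chromosome 5, 24802823 to 24842361) ranged over 35.4, 39.7 and 47.4 CPM at P9, and over 27.3, 35.6 and 41.1 CPM at P3. The ages overlapped, with P9 replicates 1 and 2 highest and P3 replicate 2 lowest. Its mean was 40.8 ± 4.59 CPM at P9 and 34.9 ± 4.46 CPM at P3 (SD, n = 6 each; log2 fold change 0.22, 95% interval 0.01 to 0.44; edgeR adjusted p = 0.0740, unadjusted p = 0.0410). Without P3 replicate 6 or without P9 replicate 4 it passed (adjusted p of 0.0340 and 0.0485). The log2 ratio of Rheb to Tsc2 was -2.36 ± 0.17 at P9 and -2.84 ± 0.33 at P3, a difference of 0.48 (exact two-sided permutation test, p = 0.00433; adjusted over 6 ratios, 0.00649). The ratios of the ages overlapped. Without P3 replicate 2, whose ratio of -3.47 was the lowest of all, the difference was 0.36.

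Ddit4, also called REDD1, is a stress-induced protein known to act through the TSC complex to restrain mTORC1 under hypoxia. Ddit4 (ENSMUSG00000020108.4, chromosome 10, 59949675 to 59951770) ranged over 34.5, 42.3 and 52.0 CPM at P9 and over 33.3, 39.9 and 51.5 CPM at P3. The ages covered nearly the same range. The log2 fold change was 0.03 with a 95% interval of -0.24 to 0.30 (edgeR adjusted p = 0.853). The sign of this value was turned in some of the alternative fits, which ran from -0.04 to 0.15.

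In the complexes, the kinase and rictor fell while raptor rose. Mtor (ENSMUSG00000028991.15, chromosome 4, 148448582 to 148557685), which encodes the kinase, ranged over 178, 257 and 303 CPM at P9 and over 210, 354 and 553 CPM at P3. The ages overlapped: P3 replicates 4 and 5, at 210 and 258 CPM, lay among the P9 values, and P3 replicate 6 was highest. Mtor averaged 247 ± 43.8 CPM at P9 and 353 ± 121 CPM at P3 (SD, n = 6 each), 1.43-fold lower at P9 (log2 fold change -0.51 ± 0.20, SE; edgeR adjusted p = 0.0400). Of the 10 genes it had the largest relative spread within P3, with an SD of 34.2% of the mean, against 17.7% at P9. Leaving out any one of P3 replicates 2, 3 and 6 or P9 replicates 2, 3, 5 and 6 ended its call, with log2 fold changes of -0.34 to -0.53 and adjusted p of 0.0573 to 0.110. The value without P3 replicate 6 was the smallest (-0.34, adjusted p = 0.110). Without P3 replicates 4 and 5 together it was -0.73 (edgeR adjusted p = 0.00173). Those replicates had the lowest Mtor of P3, so leaving them out had to enlarge the fall. With limma-voom on all libraries the adjusted p was 0.0553.

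**Figure D3:**
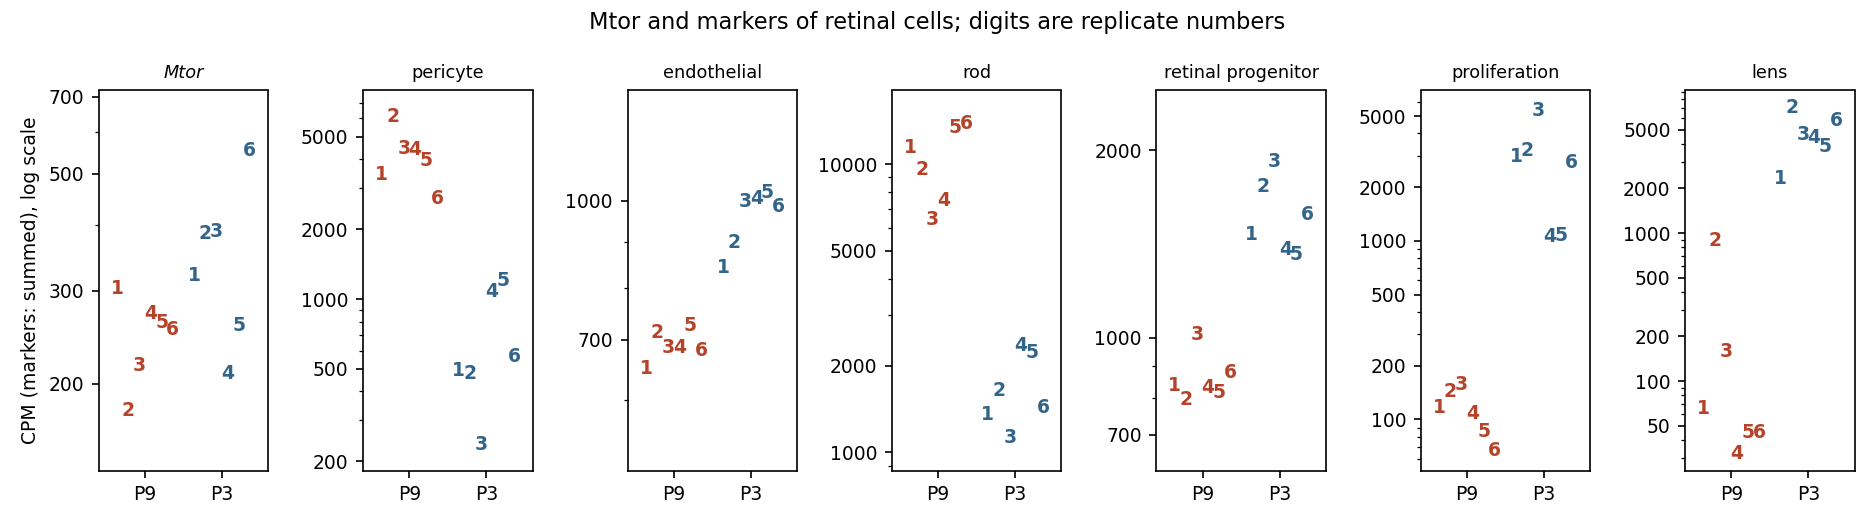
CPM of Mtor and summed CPM of 6 marker lists (vertical axes, log scale) per library, P9 left and P3 right; each digit is the replicate number of a library. P3 replicates 4 and 5 have the lowest Mtor, the highest pericyte and rod sums and the lowest proliferation and progenitor sums of their age.

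Rictor (ENSMUSG00000050310.8, chromosome 15, 6708349 to 6800401), the defining subunit of mTORC2, ranged over 136, 147 and 164 CPM at P9 and over 160, 186 and 204 CPM at P3. The ages overlapped at the lower end of P3, and replicate 4 was again the P3 library nearest to P9. Rictor averaged 150 ± 10.4 CPM at P9 and 185 ± 16.3 CPM at P3, 1.23-fold lower at P9 (log2 fold change -0.30 ± 0.07, SE; edgeR adjusted p = 0.00329). Rptor (ENSMUSG00000025583.15, chromosome 11, 119602905 to 119899591), which encodes the mTORC1 subunit raptor, ranged over 82.8, 89.6 and 96.3 CPM at P9 and over 67.3, 77.4 and 85.4 CPM at P3. It averaged 89.3 ± 5.04 CPM at P9 and 77.7 ± 6.54 CPM at P3, 1.15-fold higher at P9 (log2 fold change 0.20 ± 0.07, SE; edgeR adjusted p = 0.0258). The rise missed the threshold when P3 replicate 1, P3 replicate 2, P9 replicate 5 or P9 replicate 6 was left out, with adjusted p of 0.0593, 0.0517, 0.0526 and 0.0627 in edgeR. Mlst8 (ENSMUSG00000024142.14, chromosome 17, 24473550 to 24479114), the scaffold of both complexes, ranged over 61.6, 69.9 and 72.3 CPM at P9 and over 61.8, 70.3 and 72.8 CPM at P3. Its log2 fold change was 0.01 with a 95% interval of -0.13 to 0.15 (edgeR adjusted p = 0.889), the narrowest interval of the 10 genes. Its locus overlaps that of Bricd5, and its counts were non-whole in 6 libraries. The Mtor locus overlaps that of Angptl7 and the Rptor locus that of the long non-coding RNA Rptoros, and counts were non-whole in 0 libraries for Mtor and 3 for Rptor. Bricd5, Angptl7 and Rptoros were not among the genes tested.

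The transcripts of the defining subunits shifted against each other. The log2 ratio of Rictor to Rptor was 0.74 ± 0.13 at P9 and 1.25 ± 0.22 at P3 (SD, n = 6 each). The difference was -0.51 (exact two-sided permutation test, p = 0.00433; adjusted over 6 ratios, 0.00649), and without P3 replicates 4 and 5 it was -0.64. Those replicates, at 0.93 and 1.02, had the lowest P3 ratios, so leaving them out had to enlarge the difference. P9 replicate 4, at 0.94, overlapped them. This is a ratio of transcripts, and the amounts of the complexes were not measured.

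The windows around the annotated transcription starts are shown for the called genes, Tsc1, Tsc2, Rictor and Mtor (lower at P9) and Rptor (higher). The calls of Mtor and Rptor did not hold in all alternative fits. Each covers 120 bases before to 30 bases after the start, taken from RefSeq (GRCm38.p6), which held a window for 9 of the 10 genes; for Tsc1, Tsc2 and Rictor the start used lies inside the locus given above. Capitals mark matches, on either strand, to CCAAT (bound by NF-Y), ATGGCG (a core of the YY1 motif), CCGGAAG (a core of ETS factor sites) or ACGTG (the core bound by hypoxia-inducible factor, which overlaps the E-box CACGTG); GCATGCGC (an NRF1 core) was also searched.
Tsc1 (chr2:28641113-28641262, plus strand): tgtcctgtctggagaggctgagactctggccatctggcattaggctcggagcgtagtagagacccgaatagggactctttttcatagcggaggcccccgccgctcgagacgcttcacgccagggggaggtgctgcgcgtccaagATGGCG
Rictor (chr15:6708261-6708410, plus strand): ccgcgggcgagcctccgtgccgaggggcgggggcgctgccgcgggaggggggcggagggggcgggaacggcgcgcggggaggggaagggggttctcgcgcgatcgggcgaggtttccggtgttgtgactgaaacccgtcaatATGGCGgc
Tsc2 (chr17:24632598-24632747, minus strand): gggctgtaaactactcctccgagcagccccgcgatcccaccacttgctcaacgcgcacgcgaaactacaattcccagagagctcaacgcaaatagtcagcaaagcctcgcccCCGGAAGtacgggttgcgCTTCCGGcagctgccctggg
Mtor (chr4:148448462-148448611, plus strand): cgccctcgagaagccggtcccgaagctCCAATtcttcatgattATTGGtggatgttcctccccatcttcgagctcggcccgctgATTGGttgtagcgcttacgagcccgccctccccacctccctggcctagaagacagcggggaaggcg
Rptor (chr11:119602785-119602934, plus strand): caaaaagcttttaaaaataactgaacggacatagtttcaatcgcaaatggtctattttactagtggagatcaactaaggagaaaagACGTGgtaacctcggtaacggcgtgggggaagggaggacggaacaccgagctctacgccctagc

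ATGGCG was found in 2 of the 9 windows, those of Tsc1 and Rictor, both lower at P9, at base 25 and base 23 after the start. It occurs in 4.74% of all 32851 windows of this length. The Tsc2 window held CCGGAAG on each strand, from base -8 and base 11 (6.61% of all windows), and it also covers the start of the neighbouring gene Nthl1, 3 bases from the Tsc2 locus. The Mtor window held CCAAT 3 times (24.0% of windows have at least 1). The Rptor window held ACGTG once, and the Rheb window held the E-box CACGTG, found in 11.6% and 4.47% of windows. The Rps6kb1 window held GCATGCGC on each strand (1.97% of windows). The motifs were chosen with the sequences in view, a match is a run of letters and no evidence of binding, and no binding data were used here.

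Neither target of mTORC1 among the members passed the test. Rps6kb1 (ENSMUSG00000020516.15, chromosome 11, 86498869 to 86544885) encodes S6 kinase 1, which phosphorylates ribosomal protein S6. Rps6kb1 ranged over 84.0, 87.7 and 98.9 CPM at P9 and over 88.2, 97.8 and 122 CPM at P3, with the highest value in P3 replicate 3. The log2 fold change was -0.16 with a 95% interval of -0.33 to 0.01 (edgeR adjusted p = 0.108), and it stayed below 0 in all 24 alternative fits. Its locus overlaps that of Rnft1, which fell at P9 (18.3 ± 0.937 CPM at P9 and 22.2 ± 3.69 CPM at P3, log2 fold change -0.28, edgeR adjusted p = 0.0385). The part of shared reads in either value was not tested. Eif4ebp1 (ENSMUSG00000031490.6, chromosome 8, 27260327 to 27275656) encodes 4E-BP1, the translational repressor that mTORC1 releases from the cap-binding protein. Its values rest on 47 to 134 counts per library. Eif4ebp1 ranged over 1.45, 2.77 and 3.55 CPM at P9 and over 1.72, 2.13 and 3.27 CPM at P3, and the ages overlapped throughout. The log2 fold change was 0.13 with a 95% interval of -0.47 to 0.72 (edgeR adjusted p = 0.727), the widest interval of the 10 genes.

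Of 5 paralogues of the members, 1 rose, 2 fell and 2 did not pass the test. The called share was 60%, beside 51.8% of all tested genes. Values of the ages did not overlap for 3 of the 5, beside 31.7% of all tested genes. Eif4ebp2, the related repressor 4E-BP2, ranged over 105, 114 and 129 CPM at P9 and over 143, 161 and 179 CPM at P3, with no overlap. It was 1.40-fold lower at P9 (log2 fold change -0.49 ± 0.08, SE; edgeR adjusted p = 0.000134). The log2 ratio of Eif4ebp1 to Eif4ebp2 was -5.52 ± 0.51 at P9 and -6.11 ± 0.42 at P3 (SD, n = 6 each), a difference of 0.59 that missed the threshold (exact two-sided permutation test, p = 0.0584; adjusted over 6 ratios, 0.0606). Eif4ebp3 stood at 3.78 ± 1.10 CPM at P9 and 3.70 ± 1.05 CPM at P3 (edgeR adjusted p = 0.924).

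Rhebl1, a Rheb-like GTPase, was lower at P9 in every library (12.1 to 15.1 CPM, against 18.8 to 25.4 CPM at P3), with a log2 fold change of -0.77 ± 0.10 (SE; edgeR adjusted p = 1.65e-05). Ddit4l, also called REDD2, a relative of Ddit4, was higher at P9 in every library (4.16 to 7.49 CPM, against 1.88 to 3.09 CPM at P3). Its log2 fold change was 1.32 ± 0.19 (SE; edgeR adjusted p = 4.45e-05), 2.50-fold. The log2 ratio of Ddit4 to Ddit4l was 2.81 ± 0.30 at P9 and 4.09 ± 0.28 at P3 (SD, n = 6 each), with no overlap. The difference was -1.28 (exact two-sided permutation test, p = 0.00216; adjusted over 6 ratios, 0.00649), the largest of the 6. Rps6kb2, which encodes S6 kinase 2, stood at 61.8 ± 4.97 CPM at P9 and 57.5 ± 8.13 CPM at P3 (edgeR adjusted p = 0.374). Its ratio to Rps6kb1 was not called: the log2 ratio of Rps6kb1 to Rps6kb2 differed by -0.27 (exact two-sided permutation test, p = 0.0606; adjusted over 6 ratios, 0.0606).

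**Figure D4:**
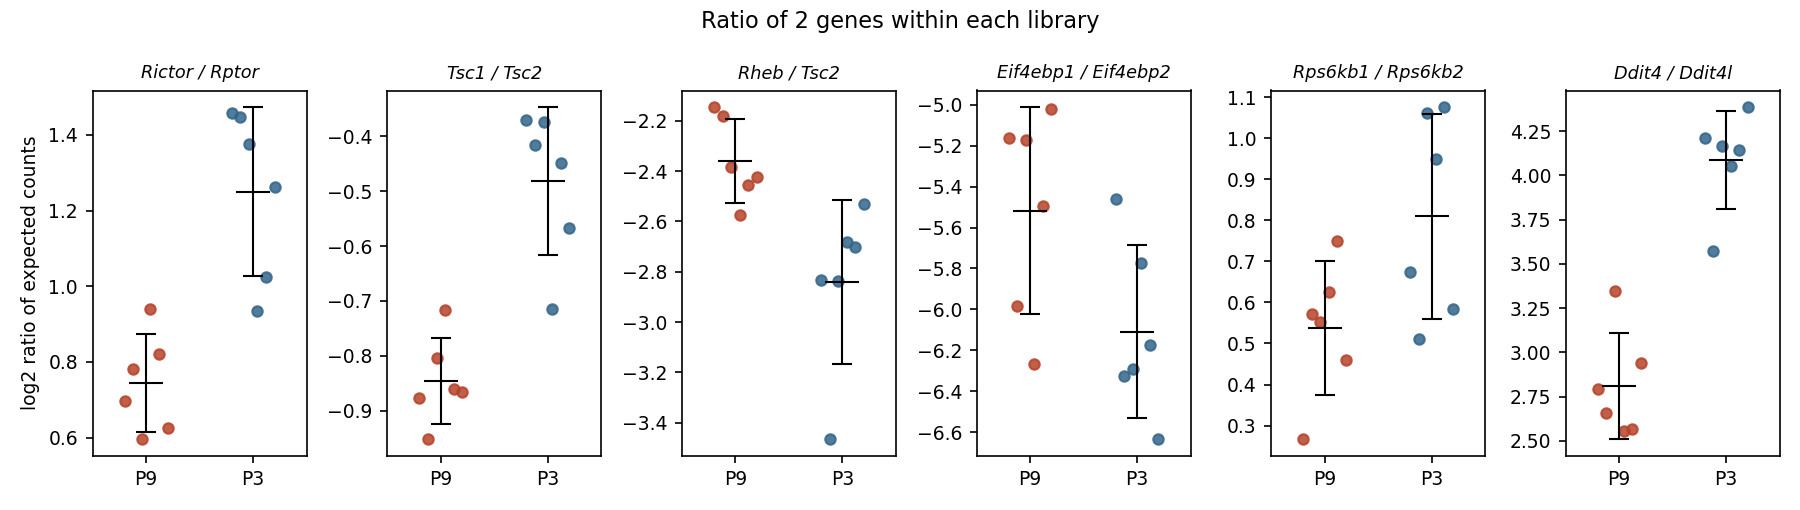
Log2 ratio of the expected counts of 2 genes (vertical axes, each on its own scale) in the 6 P9 and 6 P3 libraries; points are libraries and the bar is the mean with 1 SD. The ratios of Tsc1 to Tsc2 and of Ddit4 to Ddit4l are lower in every P9 library than in every P3 library.

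Around the members, 111 further genes of the pathway were tested in 7 lists, of which 28 rose, 40 fell and 43 did not pass. That is 61.3% called, beside 51.8% over all genes. Genes averaging at least 10 CPM, fitted alone, had 7110 of 10964 called, so 51.8% is a low baseline for abundant genes. Of 9 other complex subunits and assembly factors, 1 rose and 4 fell, so that 55.6% were called. Prr5l, an mTORC2-associated protein, was 1.83-fold lower at P9 (8.12 ± 1.92 CPM, against 14.8 ± 0.682 CPM at P3; edgeR adjusted p = 0.000121). Telo2, which helps assemble PI3-kinase-related kinases including mTOR, was 1.47-fold lower (55.8 ± 5.27 CPM at P9 and 82.3 ± 14.5 CPM at P3). Mapkap1, the mTORC2 subunit SIN1, was 1.19-fold higher (50.7 ± 2.43 CPM at P9 and 42.6 ± 6.68 CPM at P3; edgeR adjusted p = 0.0387). Prr5, the paralogue of Prr5l, did not pass the test (log2 fold change 0.30, edgeR adjusted p = 0.326), and neither did Deptor, an inhibitor that binds mTOR (0.24, edgeR adjusted p = 0.376). Akt1s1, which encodes the mTORC1 inhibitor PRAS40, was 1.34-fold lower (21.3 ± 2.87 CPM at P9 and 28.6 ± 4.31 CPM at P3; edgeR adjusted p = 0.00752). Prr5, Deptor and Akt1s1 were named after their values were seen.

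Amino acids reach mTORC1 through the Rag GTPases and their regulators. Of 29 genes tested here 10 rose, 8 fell and 11 did not pass (median log2 fold change 0.19). The called share was 62.1%, beside 51.8% of all tested genes. Rragd, a Rag GTPase, was 2.06-fold higher at P9 (33.6 to 43.0 CPM, against 16.7 to 22.1 CPM at P3; log2 fold change 1.04 ± 0.10, SE; edgeR adjusted p = 6.91e-07). Wdr59, a part of the GATOR2 complex, was 1.97-fold higher (45.6 ± 6.08 CPM at P9 and 23.1 ± 1.98 CPM at P3). The other Rag genes, named after their values were seen, were also higher at P9 in every library: Rraga averaged 148 CPM at P9 and 58.6 CPM at P3, Rragb 29.4 CPM at P9 and 16.8 CPM at P3, and Rragc 53.8 CPM at P9 and 41.2 CPM at P3. Their log2 fold changes were 1.34, 0.81 and 0.39 (edgeR adjusted p of 3.05e-05, 2.77e-06 and 0.000286). Other GATOR2 genes, also named after their values were seen, did not rise with Wdr59. Mios, Wdr24 and Seh1l were lower at P9 in every library (log2 fold changes of -0.43, -0.49 and -0.44). Their edgeR adjusted p were 0.000317, 0.000623 and 6.35e-05. Sec13 did not pass the test (0.05, edgeR adjusted p = 0.614). The ages did not overlap for 12 of the 29 genes, beside 31.7% of all tested genes.

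Of 18 upstream kinase genes, 5 rose, 6 fell and 7 did not pass (median log2 fold change -0.00097). The called share was 61.1%, beside 51.8% of all tested genes. Prkaa2, a catalytic subunit of the energy sensor AMPK, which activates TSC2, was 1.51-fold higher at P9 (44.2 ± 3.53 CPM, against 29.2 ± 3.47 CPM at P3). Stk11, the kinase LKB1 that activates AMPK, was 1.51-fold lower (118 ± 7.18 CPM at P9 and 178 ± 25.4 CPM at P3), and Akt1, which inhibits TSC2, 1.38-fold lower. All 3 kept P9 and P3 libraries apart (edgeR adjusted p of 5.32e-05, 7.08e-05 and 0.000571), but they were named for their small adjusted p. The ages did not overlap for 7 of the 18 genes, beside 31.7% of all tested genes.

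Downstream, 4 of 18 further targets and effectors rose, 6 fell and 8 did not pass (median log2 fold change -0.05). The called share was 55.6%, beside 51.8% of all tested genes. Grb10, an adaptor that mTORC1 stabilises and that dampens insulin signalling, was 1.90-fold lower (156 ± 24.3 CPM at P9 and 298 ± 22.1 CPM at P3; edgeR adjusted p = 2.94e-06). Ulk1, the autophagy kinase that mTORC1 inhibits, was 1.70-fold lower (179 ± 18.8 CPM at P9 and 305 ± 22.3 CPM at P3; edgeR adjusted p = 2.08e-06). Prkca, a kinase phosphorylated by mTORC2, was 6.47-fold higher (346 ± 80.1 CPM at P9 and 53.4 ± 9.58 CPM at P3). Prkca is also a marker of rod bipolar cells, and the 5 bipolar markers summed to 781 to 1393 CPM at P9 and 32.7 to 43.5 CPM at P3. The part of bipolar cells in its rise was not tested.

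Messengers with a 5' terminal oligopyrimidine tract (TOP), whose translation mTORC1 controls most strongly, were called at a share near that of all genes. The 14 genes listed are a part of this class and include no Rps or Rpl gene for a ribosomal protein. Rps6, counted above among the downstream targets and named after its value was seen, did not pass (log2 fold change -0.06, edgeR adjusted p = 0.769). Among the 14 genes, 8 fell, none rose and 6 missed the threshold, so that 57.1% were called, beside 51.8% of all tested genes. Of all tested genes 25.6% fell and 26.1% rose. The median log2 fold change of the 14 was -0.28, against -0.0018 over all tested genes. At an unadjusted p under 0.05, edgeR, DESeq2 and limma-voom each placed 0 of them higher. Hnrnpa1, a splicing factor, stood at 447 ± 44.2 CPM at P9 and 763 ± 48.8 CPM at P3 (1.71-fold lower; edgeR adjusted p = 2.04e-06). Pabpc1, the cytoplasmic poly(A)-binding protein, was 1.42-fold lower and Eef1d, an elongation factor subunit, 1.34-fold lower. RNA before immunoprecipitation was not analysed here, so abundance and ribosome loading cannot be told apart.

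Stress genes that hypoxia, glucocorticoids or the integrated stress response induce along with Ddit4 went both ways, while Ddit4 itself did not pass. Of 18 tested, 7 rose, 6 fell and 5 did not pass, so that 72.2% were called, beside 51.8% of all tested genes. In the fit limited to genes averaging at least 10 CPM, 6 rose and 5 fell of 13, beside 7110 called of all 10964. Asns, the asparagine synthetase induced by ATF4, was 1.77-fold higher at P9 (17.8 ± 1.96 CPM, against 10.1 ± 1.52 CPM at P3). Slc2a1, the hypoxia-induced glucose transporter GLUT1, was 1.67-fold lower (195 ± 28.0 CPM at P9 and 326 ± 15.9 CPM at P3). Zbtb16, a glucocorticoid-induced transcription factor, was 2.81-fold lower (3.49 ± 0.620 CPM at P9 and 9.80 ± 1.48 CPM at P3). For these 3 genes the libraries of the ages did not overlap (edgeR adjusted p of 4.61e-05, 1.01e-05 and 2.55e-06), but they were named for their small adjusted p. The ages did not overlap for 8 of the 18 genes, beside 31.7% of all tested genes. Further genes were named after their values were seen. Of the hypoxia-induced genes, Ankrd37 was called higher (log2 fold change 0.61), and Pdk1 and P4ha1 lower (-0.63 and -0.23). Vegfa, Bnip3, Egln3 and Adm did not pass. Of the glucocorticoid-induced genes, Tsc22d3 and Per1 were called higher (log2 fold changes of 0.62 and 0.32) and Fkbp5 lower (-0.26). Of the integrated stress response genes, Atf4, Ddit3 and Trib3 were called higher, Psat1 was called lower and Chac1 did not pass.

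**Figure D5:**
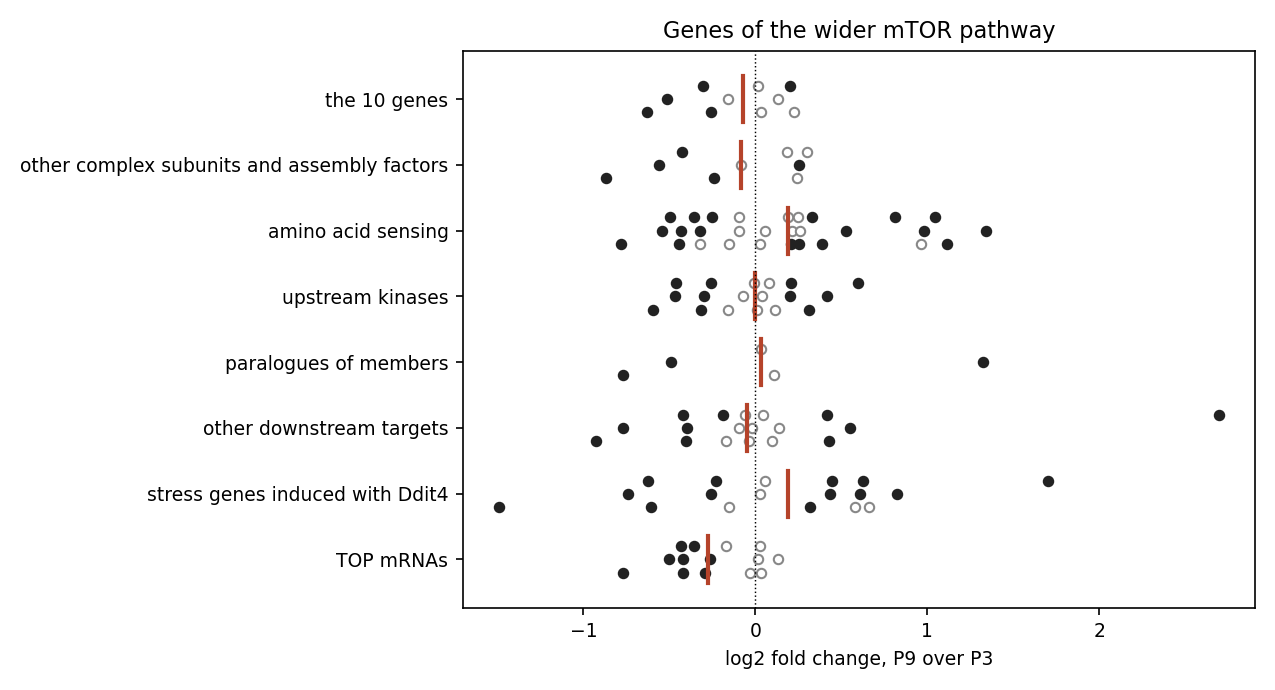
Log2 fold change, P9 over P3 (horizontal axis), of the 10 genes and of the 7 pathway lists (rows); filled points passed an adjusted p under 0.05 in edgeR, open points did not, and the red bar is the median of the list. The medians lie between -0.28 for the TOP mRNAs and 0.19 for amino acid sensing.

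Across the 12 libraries, the genes whose level followed that of Tsc1 most closely were Zfp740, Dnajc11 and Morc2a, with a Pearson correlation of log2 CPM of 0.991, 0.990 and 0.989 among 10335 genes compared. Within ages, after subtracting each age's mean, these correlations were 0.959, 0.966 and 0.964. All 3 were lower at P9, with log2 fold changes of -0.47, -0.26 and -0.42. The genes most like Rptor were Trim32, Eid2 and Phf8 (0.971, 0.967 and 0.966 over the 12 libraries, and 0.945, 0.937 and 0.926 within ages). All 3 were higher at P9, with log2 fold changes of 0.44, 0.61 and 0.31. The libraries share their depth and their makeup of cells between genes, so these values describe likeness in these libraries only. The genes were picked for their correlation over both ages, so their direction of change follows largely from the choice. The correlations within ages come from the same libraries as the choice.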

How the data were processed

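The deposited values are expected counts per gene and library, estimated by the authors and not scaled to depth. The submitters' processing notes name FastQC, Trim Galore, STAR, RSEM and limma with build mm10, without versions or roles; the annotation was not stated in them. RSEM divides reads shared between genes by a model (15.9% of values are not whole), which leaves overlapping genes less certain. Of 53090 rows, 0 lack a gene name and 240 repeat a symbol; the most abundant row was used.

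Groups follow the age in the labels; replicates were numbered in deposition order and pair nothing. Sample names of P9 replicates 5 and 6 are crossed between label and file, within 1 age. Expected counts were rounded, filtered with filterByExpr (18638 genes tested), scaled by TMM and compared with edgeR 4.0.16 (R 4.3.3, quasi-likelihood test, Benjamini-Hochberg over all tested genes, threshold 0.05). Fold changes are of P9 relative to P3, with an SE equal to their size over the square root of F. The 6 ratios used a prior of 0.5 counts and exact permutation tests. Library totals gave a precision of 25.8 to 38.5 counts per CPM.

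The members, lists and tests were chosen with earlier results of these data known. All members were named, and from each list the 3 called genes with the smallest adjusted p (1 from the other direction where called), or the 2 most abundant where fewer than 2 were called, with every paralogue. A gene that this rule names is not reported here. Likeness was taken over genes averaging at least 10 CPM, on the log2 scale (prior count 2). Gene loci and windows are RefSeq's (GRCm38.p6). The procedure was tested on simulated data. Alternatives were other scaling factors and filters, DESeq2 1.42.0, limma-voom (limma 3.58.1), a robust fit, a threshold of 0.01 and left-out libraries. Levels were not compared between genes, for want of transcript lengths.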

Additional observations from a re-analysis of the deposited data

Results flagged for a closer look

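In 3 of 32 groups of 6 libraries examined (10 genes and 6 ratios at each age), 1 library lay far from the others by Dixon's test; chance alone flags about 1 in 20 groups. Mlst8 was at 61.6 CPM in P9 replicate 2, where the nearest of the other P9 libraries had 69.1 CPM and the highest 72.3 CPM. The same library had the lowest Mtor of its age and the highest lens and erythroid marker sums at P9 (889 and 1043 CPM). Tsc2 was at 302 CPM in P3 replicate 2, where the nearest library had 255 CPM and the lowest 231 CPM. The log2 ratio of Rheb to Tsc2 was -3.47 in that same library, against -2.84 in the nearest and -2.53 in the highest P3 library. P3 replicate 2 also had the highest lens sum, 7055 CPM.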

How the results depend on the processing

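No paired analysis was possible because no label numbers the replicates, and deposition order pairs nothing. The calls of Tsc1, Tsc2 and Rictor held in all 24 alternative fits, with log2 fold changes of -0.73 to -0.56, -0.31 to -0.20 and -0.37 to -0.27. Mtor kept its direction in all 24 (-0.73 to -0.34) but missed the threshold in 11 of them, and Rptor kept its direction (0.16 to 0.27) but missed it in 6. The count of members rising was 0 to 2 over the left-out libraries, and by edgeR it was 0 without P9 replicates 5 and 6 (1 at an unadjusted p under 0.05) and 0 at an adjusted p under 0.01 (2 unadjusted); DESeq2 and limma-voom gave 1 each at the 0.05 threshold. The count of other complex subunits and assembly factors called was 3 to 5 over the left-out libraries (3 without P3 replicate 1 or 2 and 3 without P9 replicate 1, 2, 3, 5 or 6), 3 without P9 replicates 5 and 6 and 3 at an adjusted p under 0.01; that threshold left 4 TOP mRNAs. The difference in the ratio of Eif4ebp1 to Eif4ebp2 ran from 0.49 to 0.74 over the left-out libraries and passed without P3 replicate 1 or P9 replicate 4 (exact permutation test, adjusted p of 0.0364 and 0.0260). That of Rps6kb1 to Rps6kb2 ran from -0.33 to -0.22 and passed without P3 replicate 2 (exact permutation test, adjusted p = 0.0312). The cause of these changes was not tested. The other 4 ratios held in all 15 alternatives each. Low counts limit the precision of Eif4ebp1, Eif4ebp3 and Ddit4l.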
